A study of Mus musculus with 33 samples.

Results

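Phosphoinositide 3-kinase (PI3K), the AKT kinases and the mTOR kinase form a chain that carries growth factor signals, and 8 genes of that chain were followed here in enteric neural crest cells (ENCCs) of the embryonic mouse gut. They were Pik3ca and Pik3cb, which encode catalytic subunits of PI3K, Pik3r1 and Pik3r3, which encode regulatory subunits, the kinase genes Akt1, Akt2 and Mtor, and Foxo3, which encodes a transcription factor that AKT phosphorylates. The members were taken as every Affymetrix probe set that the platform annotation gives exactly 1 gene symbol, where that symbol was 1 of the 8. This gave 25 of 34945 probe sets with a single symbol, and 8 of 18193 genes. Pik3ca had 6 probe sets, Pik3r1 and Akt1 had 4 each, Akt2, Mtor and Foxo3 had 3 each, and Pik3cb and Pik3r3 had 1 each. One further probe set that lists a member among several symbols was not used.

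GDNF, a ligand that signals through the receptor tyrosine kinase RET, supports the survival, proliferation and migration of the neural crest cells that build the enteric nervous system. Activated RET recruits PI3K through adaptor proteins, PI3K makes the membrane lipid PIP3, and PIP3 draws AKT to the membrane, where PDK1 and mTOR complex 2 phosphorylate it. AKT then releases mTOR complex 1 from the restraint of the TSC proteins and keeps FOXO factors out of the nucleus. These steps run on protein and lipid phosphorylation, which arrays of RNA do not measure, so all values below concern transcripts.

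GDNF-treated ENCCs carried a Wnt1-Cre transgene and a R26-YFP reporter that Cre switches on, on a C57BL/6 background, were sorted for YFP at embryonic day 14.5, and received GDNF at 50 ng/ml in medium that also held FGF and EGF with N2 and B27 supplements, on fibronectin. Untreated ENCCs came from the same 9 guts, with the same genotype, age, medium and plates, and received no GDNF. Each gut gave 1 well of each kind. Both ENCC groups therefore grew with FGF and EGF, which can also feed the PI3K chain, and ENCCs lacking any growth factor were not among the groups. Whole guts were wild-type C57BL/6 tissue of the same age, dissected from duodenum to anus and not cultured. Whole gut thus differed from ENCCs in cell makeup, transgene, sorting and culture together, and these cannot be told apart. Litters are not recorded in the labels, so p-values measure the spread between these samples.

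The 33 arrays comprised 13 of GDNF-treated ENCCs, 12 of untreated ENCCs and 8 of whole gut. Their titles place them in 2 batches of 17 and 16 arrays and do not say what set the batches apart. Whole gut was in batch 2 alone, and 7 of the 18 ENCC RNAs were read on an array in each batch. The deposited values are scores made from ranks within an array, with a median of 0 and a range of -4.08 to 4.08, and averages of single probe sets across the repeated ENCC RNAs lay around 0 (SD over all probe sets 0.0585 in the first batch, 0.117 in the second). A score therefore gives neither a fold change nor a level that can be set against another gene's. The correlation between batches for the same RNA over all probe sets was 0.117 to 0.325, and for the batch 2 array of untreated gut 3 it was lower than with another gut. That array is the one doubted below. Against whole gut, all 7 neuron markers were higher and all 10 gut epithelium, 6 endothelium and 5 mesothelium markers were lower in both ENCC groups. Of 5 neural crest markers 3 were higher in GDNF-treated and 4 in untreated ENCCs, and of 5 glia markers 5 and 3. Of 8 smooth muscle and mesenchyme markers 6 were lower in GDNF-treated and 5 in untreated ENCCs, but Col1a1 was higher in untreated ENCCs, by 0.47. Of 6 macrophage and leukocyte markers 4 and 5 were lower, but Adgre1 was higher in untreated ENCCs, by 1.96. Of 3 erythroid markers 2 were lower in both. With GDNF, 6 of the 7 neuron markers were higher than in untreated wells, and their mean score was -0.07 to 0.76 in GDNF-treated wells, -1.86 to -0.23 in untreated wells and -2.06 to -1.98 in whole guts. Of 8 smooth muscle and mesenchyme markers, Pdgfrb and Col1a1 were called lower with GDNF, by 1.35 and 1.28, and the mean of the 8 was lower in 8 of 9 guts. Of 5 glia markers, Fabp7 and Gfap were called higher, by 1.60 and 1.13, and Cdh19 lower, by 0.91. Among the other lists, Pecam1 (endothelium), Gfra1 (neural crest) and Lrrn4 (mesothelium) were called higher with GDNF, by 1.34, 1.01 and 0.93. Adgre1 (macrophage and leukocyte) was called lower, by 0.96. No gut epithelium or erythroid marker was called with GDNF. The part of these shifts in the results below was not tested. In mixed samples, fewer cells of a type and less RNA per cell cannot be told apart.

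The main question was whether GDNF changed the transcripts of the chain itself. Akt2 was lower in the GDNF-treated wells of all 9 guts, by 1.13 ± 0.42 score units (SD, n = 9), and it was the 1 member of 8 that passed the test over all genes (adjusted p = 0.000904). All 8 members had a mean difference below 0, with a median of -0.52, against 0.0055 over all genes. Over all genes, 9038 of 18193 were below 0. Of all 18193 genes, 13.2% were called lower with GDNF and 18.3% higher, so 1 lower call among 8 members is close to the background. Foxo3 came next and missed the threshold at -0.61 ± 0.55 (SD, n = 9; adjusted p = 0.0512). The 5 ribosomal protein genes kept as a sign of RNA quality were also lower on average with GDNF, by 0.89 over their mean, in all 9 guts, and the 18 hybridisation control probe sets differed by -0.72 ± 0.99 (SD, n = 9) and were lower in 6. The part of either in the results was not tested beyond a fit with the controls as a covariate, in which Akt2 differed by -0.94 (adjusted p = 0.0161).

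**Figure D1:**
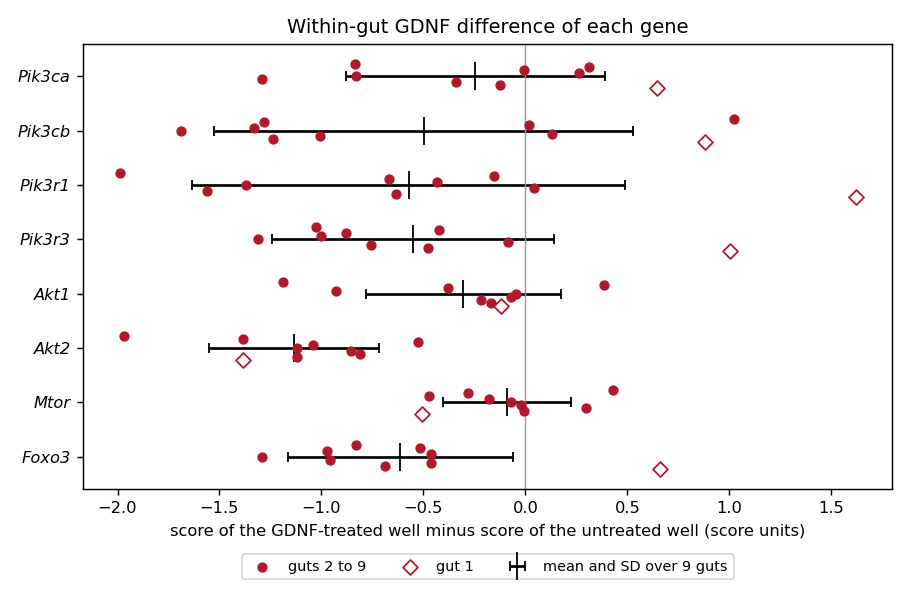
Score of the GDNF-treated well minus score of the untreated well of the same gut, in score units, for the 8 genes. Filled points are guts 2 to 9, the open diamond is gut 1, and the bar with whiskers is the mean and SD over the 9 guts. All 9 Akt2 points lie below 0, and gut 1 lies on the other side of 0 from the mean for Pik3ca, Pik3cb, Pik3r1, Pik3r3 and Foxo3.

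AKT1 and AKT2 are closely related serine and threonine kinases, of which AKT1 is known for growth and survival and AKT2 for the response to insulin. Akt2 scored between -1.07 and -0.18 in the GDNF-treated wells, with a median of -0.45, against 0.16 to 1.26 with a median of 0.54 in the untreated wells. Every treated well thus lay below every untreated well, and the smallest difference within a gut was -0.52, in gut 7, and the largest -1.97, in gut 9. Among all genes, 6.14% were lower in all 9 guts. The share of genes with every treated well below every untreated well was not counted. Akt1 scored between -0.51 and 0.83 with a median of -0.07 in the GDNF-treated wells, against -0.29 to 0.90 with a median of 0.25 in the untreated wells. The Akt1 groups overlapped over most of their range, and the difference of -0.30 ± 0.48 (SD, n = 9) did not pass the test (adjusted p = 0.316), although it was below 0 in 8 of 9 guts.

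The GDNF differences of the kinases were set against each other within each gut. The difference of Akt1 exceeded that of Akt2 by 0.83 ± 0.52 score units (SD), above 0 in 9 of 9 guts (exact two-sided sign change test, p = 0.00391, the smallest that 9 guts allow, adjusted p = 0.0117 over 3 pairs). The lead of Akt1 over Akt2 compares score differences, which are not folds and need not share a scale between genes. It was 0.61 with batch 1 alone (adjusted p = 0.141) and 0.94 with 1 probe set for each gene, the one whose scores agreed best between batches (adjusted p = 0.164), and neither passed.

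**Figure D2:**
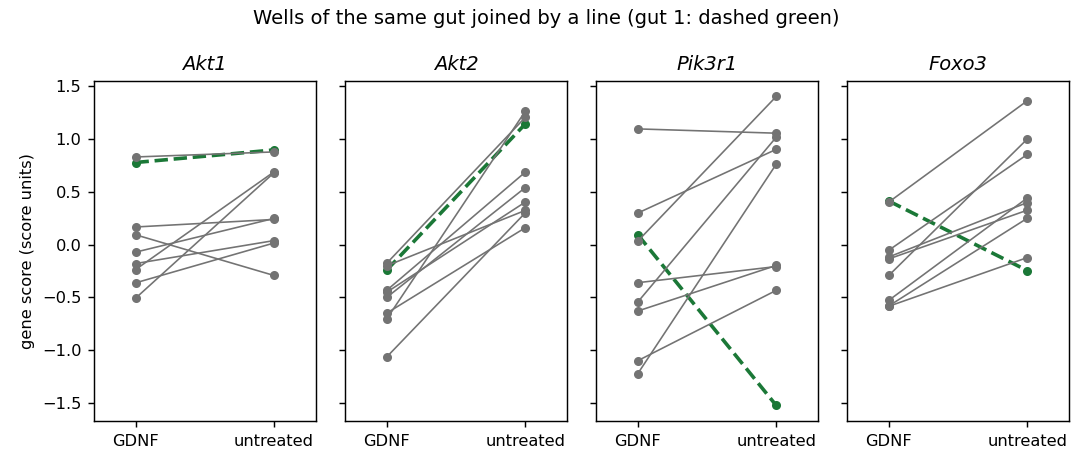
Gene scores, in score units, of the GDNF-treated well (left) and the untreated well (right) of each of 9 guts for 4 genes, with wells of 1 gut joined by a line and gut 1 dashed. For Akt2 every treated well is below every untreated well, while for Pik3r1 and Foxo3 gut 1 runs against the other guts' mean.

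All 3 Akt2 probe sets were called lower with GDNF. Probe set 1421324_a_at differed by -0.996 ± 0.82 (adjusted p over all probe sets = 0.0188), 1424480_s_at by -1.17 ± 0.72 (adjusted p = 0.00567) and 1455703_at by -1.24 ± 0.67 (adjusted p = 0.00333) (SD, n = 9). All 3 were below 0 in both batches, with batch means of -1.15 to -1.21 in batch 1 and -0.78 to -1.54 in batch 2. Probe set 1424480_s_at was also among the most repeatable of the 25, with a correlation between batches of 0.921 over the 7 repeated RNAs. With batch 2 alone, which holds 4 pairs, Akt2 differed by -1.24 and did not pass (adjusted p = 0.210), and no gene passed there, while 3516 had an unadjusted p under 0.05.

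Of the 4 Akt1 probe sets 1 was called with GDNF. Probe set 1416657_at was lower with GDNF by 0.80 and passed over all probe sets (adjusted p = 0.0289), with a mean difference of -1.35 in batch 1 and 0.46 in batch 2. The other 3 Akt1 probe sets lay between -0.23 and -0.07 and did not pass. None of the 6 differences between these probe sets passed either, with a lowest adjusted p of 0.245. The direction of 1416657_at thus depended on the batch, and its scores in both batches correlated at -0.21.

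The promoters of both kinase genes are shown because the 2 transcripts differed in their score change with GDNF. Of the starts that RefSeq lists, the one with the most GC boxes is printed, from 250 bases before to 50 after the start, with capitals for the GC box (GGGCGG on either strand, overlapping matches counted) and for the FOXO core (GTAAACA on either strand).
Akt1 promoter, chr12:112674227-112674526, minus strand: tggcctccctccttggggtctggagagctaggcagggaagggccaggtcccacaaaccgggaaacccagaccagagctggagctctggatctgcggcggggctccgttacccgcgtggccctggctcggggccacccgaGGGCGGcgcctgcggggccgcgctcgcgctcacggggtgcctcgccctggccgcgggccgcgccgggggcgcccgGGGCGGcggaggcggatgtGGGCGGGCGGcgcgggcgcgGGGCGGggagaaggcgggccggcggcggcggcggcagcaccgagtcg
Akt2 promoter, chr7:27591302-27591601, plus strand: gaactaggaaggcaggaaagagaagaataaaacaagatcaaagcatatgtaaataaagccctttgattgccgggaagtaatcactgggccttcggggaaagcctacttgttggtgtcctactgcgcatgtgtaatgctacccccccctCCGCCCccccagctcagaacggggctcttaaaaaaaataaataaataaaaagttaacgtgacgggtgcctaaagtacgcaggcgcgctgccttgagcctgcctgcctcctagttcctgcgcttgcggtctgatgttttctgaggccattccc
The printed Akt1 promoter held 5 GC boxes and 79.7% G and C, and the Akt2 promoter held 1 and 50.0%. Over all 32851 mouse promoters of 300 bases in the table, 35.7% held a GC box and 3.65% a FOXO core, and the median G and C content was 52.7%. Choosing the start by its GC boxes favours that motif, so its presence in the printed windows is no finding. Neither printed window held a FOXO core, and the other Akt1 start, chr12:112674835-112675134, held 1. The 3 other Akt2 starts held neither motif. Sequences and coordinates are those of RefSeq on GRCm38.p6, in which all 8 members had at least 1 of 15 promoters, and a match is a description of letters and no evidence of binding.

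PI3K of class I pairs a catalytic subunit, such as p110α from Pik3ca or p110β from Pik3cb, with a regulatory subunit that binds phosphorylated receptors and adaptors, such as p85α from Pik3r1 or p55γ from Pik3r3. None of these 4 genes passed the GDNF test over all 9 guts. Pik3r1 scored between -1.22 and 1.10 with a median of -0.36 in GDNF-treated wells, against -1.52 to 1.40 with a median of 0.76 in untreated wells. Pik3r3 scored between -1.45 and 1.66 with a median of -0.57 in GDNF-treated wells, against -1.57 to 1.74 with a median of -0.03 in untreated wells. The groups overlapped widely for both, and the lowest well of both genes was the untreated well of gut 1.

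Pik3r1 differed by -0.57 ± 1.06 (adjusted p = 0.201) and was lower in 7 of 9 guts, and Pik3r3 by -0.55 ± 0.69 (adjusted p = 0.108) and lower in 8 (SD, n = 9). Gut 1 stood apart with differences of 1.62 for Pik3r1 and 1.00 for Pik3r3. Without gut 1, Pik3r1 differed by -0.85 (adjusted p = 0.0260), Pik3r3 by -0.74 (adjusted p = 0.0158) and Foxo3 by -0.77 (adjusted p = 0.00948), which made 4 of 8 members called lower. In that fit 5909 of 18193 genes were called, 57.1% of them higher, against 5725 called with all 9 guts. Gut 1 was singled out by these same values, so the added calls are no separate support. With any other gut left out, 1 of 8 was called.

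Both regulatory genes followed each other across wells. Over the 18 ENCC RNAs their scores correlated at 0.889, the highest of the 28 pairs of members, which ran from -0.34 to that value with a median of 0.32. The points share guts, batches and treatment, so the correlation is a description. The 4 Pik3r1 probe sets had differences of -0.72 to -0.42, all below 0 in both batches, and the single Pik3r3 probe set, 1456482_at, was the most repeatable of the 25, at 0.948 between batches. The GDNF difference of Pik3r1 minus that of Pik3r3 was -0.02 ± 0.55 over 9 guts (SD; exact sign change test, adjusted p = 0.898).

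Their promoters are shown because their scores ran together over wells, with the start and the capitals chosen as for the AKT genes and, as the Pik3r3 starts tied, the one with the lowest coordinate.
Pik3r1 promoter, chr13:101768168-101768467, minus strand: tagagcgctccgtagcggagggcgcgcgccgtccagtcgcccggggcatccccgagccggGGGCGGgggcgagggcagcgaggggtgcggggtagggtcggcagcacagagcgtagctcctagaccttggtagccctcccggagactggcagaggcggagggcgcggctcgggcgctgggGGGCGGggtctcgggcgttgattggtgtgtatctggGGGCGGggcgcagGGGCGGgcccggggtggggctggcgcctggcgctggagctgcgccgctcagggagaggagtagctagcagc
Pik3r3 promoter, chr4:116221166-116221465, plus strand: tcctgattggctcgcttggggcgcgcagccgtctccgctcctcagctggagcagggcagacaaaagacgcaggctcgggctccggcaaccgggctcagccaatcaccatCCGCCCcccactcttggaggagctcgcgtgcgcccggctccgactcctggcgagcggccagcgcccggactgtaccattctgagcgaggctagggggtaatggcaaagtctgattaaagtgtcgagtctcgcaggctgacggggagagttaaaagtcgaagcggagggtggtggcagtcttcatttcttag
The Pik3r1 window held 4 GC boxes and 75.7% G and C, and the Pik3r3 window held 1 and 63.0%. Neither held a FOXO core. The other Pik3r1 start held no GC box and 43.7% G and C, and the other two Pik3r3 starts held 1 GC box each.

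The catalytic genes had no call at the level of the gene. Pik3ca scored between -0.56 and 0.61 with a median of -0.27 in GDNF-treated wells, against -0.82 to 1.05 with a median of 0.06 in untreated wells, and differed by -0.25 ± 0.63 (SD, n = 9; adjusted p = 0.482). Pik3cb scored between -1.57 and 1.49 with a median of -1.05 in GDNF-treated wells, against -2.45 to 1.02 with a median of 0.23 in untreated wells, and differed by -0.50 ± 1.03 (SD, n = 9; adjusted p = 0.258). The groups overlapped for both genes, and the Pik3cb guts split, with 5 below 0 at -1.69 to -1.01 and 4 above 0 at 0.02 to 1.02. The GDNF difference of Pik3ca minus that of Pik3cb was 0.25 ± 1.25 (SD, n = 9; exact sign change test, adjusted p = 0.820).

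The 6 Pik3ca probe sets spread from -1.23 to 0.30. Only 1423144_at passed, at -1.23 ± 1.15 (SD, n = 9; adjusted p = 0.0156), with 8 of 9 guts below 0 and batch means of -1.31 and -0.81. Probe sets 1429434_at and 1429435_x_at had differences of 0.30 and 0.21, and an x in such a name marks probes that may also bind other transcripts. The 3 pairs of 1423144_at with 1429434_at, 1429435_x_at and 1453134_at differed by -1.54, -1.45 and -1.37, at adjusted p of 0.0658, 0.0629 and 0.0959 over all pairs. No member pair of 36 passed, in a test where 5.44% of 30372 pairs did, and 4 of the 36 had an unadjusted p under 0.05. Which stretch of a transcript each probe set reads was not analysed here.

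Across all 25 probe sets, 21 were below 0, and 6 were called lower and none higher, where 13.2% of all probe sets were called lower and 16.9% higher. Besides the 3 of Akt2, the 6 were 1423144_at of Pik3ca, 1416657_at of Akt1 and 1434831_a_at of Foxo3. The sign of the difference was the same in both batches for 20 of 25. How many of all probe sets lay below 0 or kept their sign was not counted. Some RNAs were read in both batches, so the signs are not independent. The correlation between batches had a median of 0.357 over the members' probe sets, against 0.370 over all named probe sets, and 8 of the 25 were below 0.

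**Figure D3:**
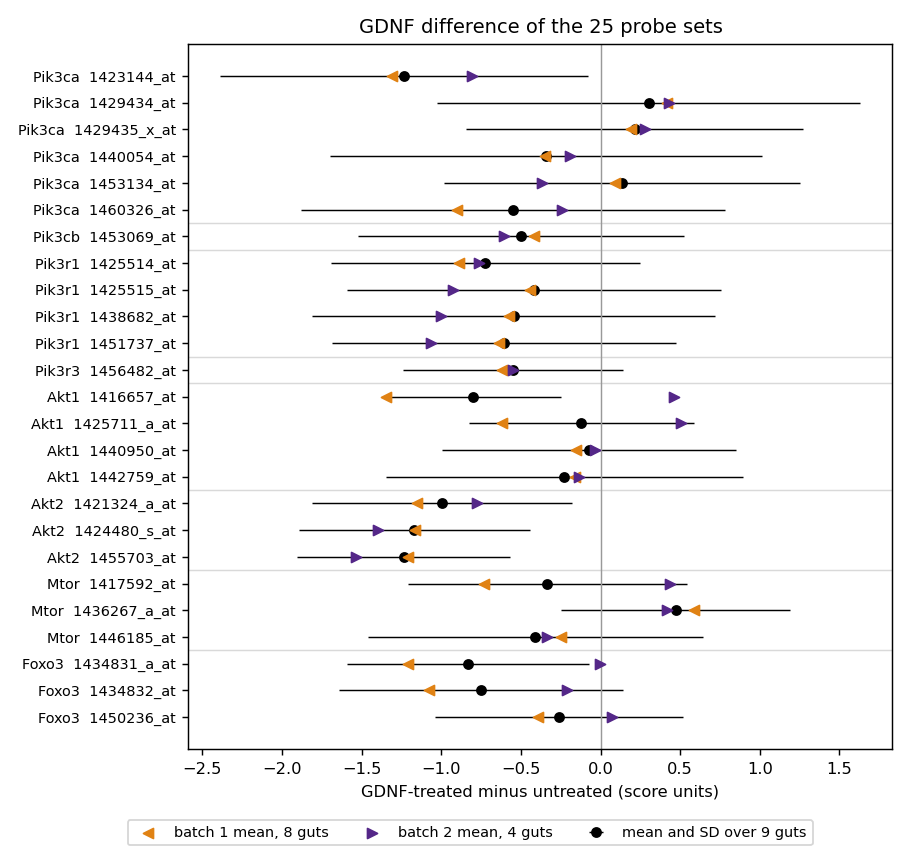
GDNF-treated minus untreated score, in score units, for the 25 probe sets grouped by gene. Black points and whiskers are the mean and SD over 9 guts, and triangles are the means of batch 1 (8 guts) and batch 2 (4 guts). The 3 Akt2 probe sets lie at -1.24 to -0.996 with both batch means below 0, while the batch means of Akt1 probe set 1416657_at lie on opposite sides of 0.

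mTOR is the kinase at the core of mTOR complexes 1 and 2, which control protein synthesis and phosphorylate AKT. Mtor scored between -0.73 and 0.74 with a median of -0.07 in GDNF-treated wells, against -0.37 to 1.25 with a median of 0.16 in untreated wells. The groups overlapped, and the difference of -0.09 ± 0.32 (SD, n = 9) was the smallest of the 8 (adjusted p = 0.765). Its direction was not stable, at 0.17 in batch 2 alone and 0.07 with the median over probe sets. Its 3 probe sets, 1417592_at, 1436267_a_at and 1446185_at, had differences of -0.33, 0.47 and -0.41, none of which passed.

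FOXO3 is a forkhead transcription factor that AKT phosphorylation holds in the cytoplasm. Foxo3 scored between -0.58 and 0.41 with a median of -0.14 in GDNF-treated wells, against -0.25 to 1.36 with a median of 0.40 in untreated wells. The groups overlapped, although 8 of 9 guts had a lower score in the treated well, by 0.46 to 1.29, and gut 1 had a higher one, by 0.66. The mean difference was -0.89 in batch 1 (adjusted p = 0.0373) and -0.05 in batch 2 (adjusted p = 0.971), and without the doubted array of gut 3 the difference over both batches was -0.79 (adjusted p = 0.0294). Probe sets 1434831_a_at, 1434832_at and 1450236_at had differences of -0.83, -0.75 and -0.26, and their correlations between batches were -0.50, -0.02 and -0.08. The first of the 3 passed over all probe sets (adjusted p = 0.0396), and its difference was -1.21 in batch 1 and -0.003 in batch 2.

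The next question was how the members stood against whole gut. Pik3ca, Pik3cb, Pik3r1 and Pik3r3 were higher in both ENCC groups than in whole gut, while Akt1 was lower in both and Mtor passed in neither. Of the 6 other class I subunit genes, 1 was called higher and 2 lower in each ENCC group, with median differences of -0.39 with GDNF and -0.27 without. These comparisons used the batch 2 arrays, 4 of GDNF-treated ENCCs, 4 of untreated ENCCs and 8 of whole gut, and both comparisons share the whole guts. In GDNF-treated ENCCs 5 of 8 members were called higher than in whole gut and 2 lower, where 25.1% and 26.0% of all genes were called, with a median difference of 0.79 over the members and -0.015 over all genes. In untreated ENCCs 5 of 8 were called higher and 1 lower, where 19.8% and 22.8% of all genes were called, with medians of 1.26 over the members and -0.011 over all genes.

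Pik3ca scored 0.32, -0.15, 0.41 and -0.67 on the arrays of GDNF-treated ENCCs of guts 2, 3, 8 and 9, 0.45, -0.15, -0.12 and 0.33 on those of untreated ENCCs, and -1.89 to -1.69 with a median of -1.74 in whole guts. Every ENCC array lay above every whole gut, and the differences were 1.74 with GDNF (adjusted p = 3.87e-06) and 1.89 without (adjusted p = 9.72e-07). How many of all genes separate from whole gut without overlap, above or below, was not counted. This holds for each separation given below. All 6 Pik3ca probe sets were called higher than whole gut in both ENCC groups, including those that differed in sign with GDNF. Pik3r3 scored 0.89, 0.26, -0.96 and -1.10 with GDNF, 1.37, 0.88, -1.02 and 0.06 untreated, and -2.09 to -1.84 with a median of -2.03 in whole guts. Its differences were 1.77 with GDNF (adjusted p = 0.000313) and 2.32 without (adjusted p = 5.84e-05), again with no overlap.

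Pik3r1 scored 0.27, -0.89, 0.10 and -1.13 with GDNF, 0.90, 0.24, -0.28 and 1.24 untreated, and -1.56 to -1.42 with a median of -1.48 in whole guts. No ENCC array reached the whole guts, and the differences were 1.07 with GDNF (adjusted p = 0.00166) and 2.01 without (adjusted p = 1.17e-05). Pik3cb scored -1.46, -1.50, -0.21 and 1.65 with GDNF, -0.22, 0.22, 0.31 and 0.60 untreated, and -1.70 to -1.43 with a median of -1.50 in whole guts. The GDNF-treated wells of guts 2 and 3 lay inside the whole gut range, and the difference of 1.17 with GDNF (adjusted p = 0.0457) lost its call without any 1 of the 8 whole guts and without gut 8 or gut 9, and was 0.49 without gut 9 (adjusted p = 0.0964). Without GDNF the difference was 1.78 (adjusted p = 2.34e-06) with no overlap. Of the 12 probe sets of the 4 subunit genes, 11 were called higher with GDNF and 12 without, and their mean whole gut scores ran from -2.20 to -1.08. Over all genes, 25.1% were called higher with GDNF and 19.8% without, and the share over all probe sets was not counted. Probe sets of the same gene are not independent of each other.

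**Figure D4:**
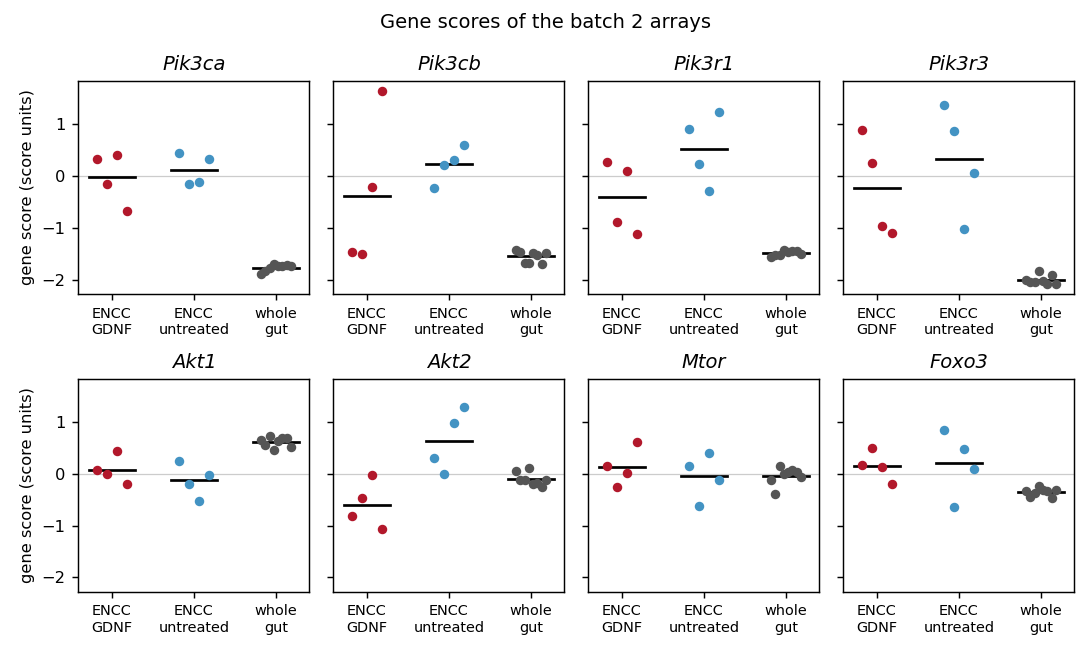
Gene scores, in score units, of the batch 2 arrays: 4 of GDNF-treated ENCCs (left), 4 of untreated ENCCs (middle) and 8 of whole gut (right) for each gene, with a bar at the mean. For Pik3ca, Pik3r1 and Pik3r3 all ENCC arrays are above all whole guts, and for Akt1 all are below.

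Akt1 scored 0.08, 0.01, 0.44 and -0.20 with GDNF, 0.25, -0.19, -0.52 and -0.02 untreated, and 0.46 to 0.73 with a median of 0.64 in whole guts. All 8 ENCC arrays lay below all whole guts, and the differences were -0.54 with GDNF (adjusted p = 0.00439) and -0.74 without (adjusted p = 0.00252). Of its 4 probe sets, only 1425711_a_at passed, at -1.14 with GDNF and -1.65 without. With all 9 ENCC RNAs of both batches, the untreated difference was -0.24 (adjusted p = 0.287), and with the median over probe sets the differences were -0.29 with GDNF (adjusted p = 0.0753) and -0.42 without (adjusted p = 0.0525).

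Akt2 lay on opposite sides of whole gut in the ENCC groups. It scored -0.82, -0.48, -0.02 and -1.07 with GDNF, 0.30, -0.01, 0.98 and 1.30 untreated, and -0.25 to 0.12 with a median of -0.12 in whole guts. Of the GDNF-treated arrays 3 lay below all whole guts and of the untreated arrays 3 lay above them, with differences of -0.50 (adjusted p = 0.0309) and 0.74 (adjusted p = 0.0146). The probe sets did not bear this out one by one. Whole gut averaged -1.05 on 1455703_at, against 0.56 on 1421324_a_at and 0.19 on 1424480_s_at, and the untreated difference was 1.91, -0.27 and 0.57 on these, of which the first passed. The difference with GDNF was 0.37, -1.04 and -0.83, of which the second and the third passed. At the level of the gene, the call with GDNF ended without gut 2, without gut 9 (-0.34, adjusted p = 0.0946) and without whole gut 1 or 4. The untreated call ended with the median over probe sets (0.34, adjusted p = 0.304) and with the most repeatable probe set (0.57, adjusted p = 0.274).

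Foxo3 scored 0.17, 0.51, 0.14 and -0.19 with GDNF, 0.85, -0.63, 0.48 and 0.10 untreated, and -0.47 to -0.24 with a median of -0.33 in whole guts. All 4 GDNF-treated arrays and 3 of the 4 untreated arrays lay above all whole guts, and the exception was the doubted array of gut 3. The differences were 0.50 with GDNF (adjusted p = 0.00679) and 0.55 without (adjusted p = 0.0622), and without the doubted array the untreated difference was 0.83 (adjusted p = 0.000410). With all 9 RNAs of both batches they were 0.18 (adjusted p = 0.377) and 0.82 (adjusted p = 0.00203). Mtor scored 0.15, -0.25, 0.01 and 0.61 with GDNF, 0.16, -0.61, 0.40 and -0.11 untreated, and -0.38 to 0.15 with a median of 0.01 in whole guts. The 3 groups overlapped, and the differences were 0.16 (adjusted p = 0.437) and -0.01 (adjusted p = 0.972).

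In order of score, untreated ENCCs were highest, GDNF-treated ENCCs next and whole gut lowest for the 4 subunit genes and Foxo3 in batch 2. The step between the ENCC groups passed the test over 9 guts for none of these 5 genes. For Akt1 whole gut was highest, and the batch 2 means of 0.08 with GDNF and -0.12 untreated lay within the spread of each other. For Akt2 the mean over its probe sets was highest in untreated ENCCs, next in whole gut and lowest in GDNF-treated ENCCs, an order that changes with the probe set read. The 3 Mtor means, 0.13, -0.04 and -0.03, did not differ beyond their spread. Whole gut scores varied little, with an SD of 0.05 to 0.16 over the 8 members, against 0.27 to 1.48 for GDNF-treated and 0.31 to 1.05 for untreated ENCCs in batch 2. The scores appear centred on ENCC RNAs and are ranked within an array. These SDs therefore depend on the scoring and do not compare how much the samples themselves vary. When this unequal spread was allowed for with array weights per group, the calls of Pik3cb, Akt1, Akt2 and Foxo3 with GDNF and of Akt1 and Akt2 without ended.

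The other genes of the pathway were read from lists grouped by role. Over the 96 measured genes of these lists, 16 were called higher with GDNF and 25 lower, with a median difference of -0.20, where 18.3% of all genes were called higher and 13.2% lower. The counts of the single lists below are to be read against these shares. Listed genes without a probe set of a single symbol were not analysed here.

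Upstream of AKT, movement ran both ways. Of the 6 other class I subunits, only Pik3cd, which encodes p110δ, was called, higher by 0.66 ± 0.24 in 9 of 9 guts (adjusted p = 0.0142), and the regulatory Pik3r2 differed by -0.91 ± 1.74 (adjusted p = 0.166) (SD, n = 9). Of 4 class II and III genes, Pik3c2a was lower by 0.65 (adjusted p = 0.0259). Of 8 adaptors that bring PI3K to receptors, Grb2 and Dok5 were higher by 1.15 and 1.14, and Dok4 and Gab1 were lower by 1.25 and 0.90. DOK4 and DOK5 are docking proteins known to bind RET, and they moved in opposite directions. Of 10 lipid phosphatases and inhibitors, Inpp4b and Inpp4a, phosphatases of PI(3,4)P2, were higher by 1.52 and 1.01, and Phlpp1, an AKT phosphatase, Inppl1 and Pik3ip1 were lower by 1.40, 1.17 and 0.86.

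Pdpk1, which encodes the kinase PDK1 that phosphorylates AKT, was higher with GDNF by 1.38 ± 0.73 in 9 of 9 guts (SD; adjusted p = 0.00108). With Ppp2r1a, a scaffold subunit of the phosphatase PP2A, at 1.32 and Them4, an AKT-binding protein, at 0.77, 3 of the 4 measured genes of the list of AKT kinases and activators were called higher. PP2A is known to dephosphorylate AKT, so the list does not hold activators alone. Of 8 AKT substrates, Mdm2 was lower by 1.23 and Tbc1d4 by 0.88, and Bad was higher by 0.80.

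Of 10 genes of TSC, RHEB and the restraint of mTOR complex 1, 4 were called lower with GDNF and 1 higher. The 4 encode stress-induced inhibitors. Ddit4 was lower by 1.62, Sesn2 by 1.48, Ddit4l by 1.28 and Sesn3 by 1.20, and Rhebl1, a relative of the GTPase RHEB, was higher by 1.44 (adjusted p of 0.000243, 0.000206, 0.0143, 0.00504 and 0.000190). Tsc1, Tsc2 and Rheb, the core of that switch, differed by 0.08, -0.50 and 0.47 and did not pass (adjusted p of 0.809, 0.234 and 0.212). Of 10 mTOR complex subunits, Prr5l was higher by 1.06 and Mapkap1, a subunit of complex 2, lower by 0.81. Rptor and Rictor, the defining subunits of complexes 1 and 2, differed by -0.13 and -0.55 and did not pass (adjusted p of 0.747 and 0.0985).

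Of 13 genes of amino acid sensing, 3 were higher and 2 lower, close to the shares over all genes. Nprl2, a subunit of the GATOR1 complex, was higher by 1.54 and the GTPase gene Rraga by 1.47, and Lamtor4 was lower by 1.00. Of 8 translation genes, Rps6kb2, an S6 kinase gene, was higher by 1.24, and Eif4b and Rps6 were lower by 0.72 and 0.68, beside the lower ribosomal protein genes given above. Eif4ebp1, which encodes a repressor of translation that mTOR phosphorylates, differed by -0.23 (adjusted p = 0.685).

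Genes known from other work as FOXO targets were the list with the most lower calls, and also the longest list. Like the others, it was chosen with earlier results of these data known, so its rank among the lists is a description. Of 20 genes, 10 were called lower and 1 higher, with a median of -0.76, where 13.2% and 18.3% of all genes were called. Klf2, a transcription factor gene, was lower by 1.64 ± 1.08, Gadd45a, a growth arrest and DNA damage gene, by 1.53 ± 0.56, and Txnip, which encodes a thioredoxin inhibitor, by 1.48 ± 0.60, each in 9 of 9 guts (SD; adjusted p of 0.00166, 0.000235 and 0.000350). Their batch means ran from -1.63 to -1.47 in batch 1 and from -1.74 to -1.35 in batch 2. Sod2, a mitochondrial superoxide dismutase gene on the same list, was higher by 0.87 (adjusted p = 0.0346). Several of these genes also answer to p53 or to stress, 4 of the 20 stand on another list here, and whether FOXO acted on them was not tested. With 1 gut left out in turn, 8 to 10 of the 20 were called lower. Foxo1 and Foxo4, the other family members, differed by -0.62 ± 0.66 (adjusted p = 0.0681) and -0.19 ± 0.79 (adjusted p = 0.649) (SD, n = 9).

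**Figure D5:**
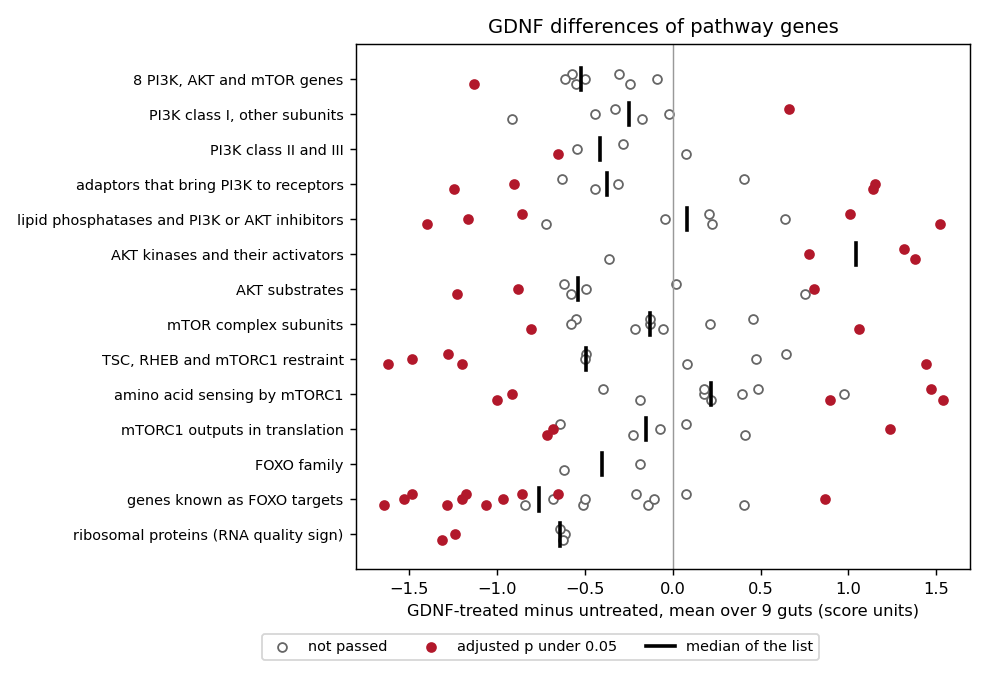
Mean GDNF-treated minus untreated score over 9 guts, in score units, for each gene of the members and of the pathway lists. Filled points passed at an adjusted p under 0.05 over all genes, open points did not, and the bar is the list's median. The FOXO target list, the longest, has 10 filled points below 0 and 1 above, and the AKT kinases and their activators have 3 above.

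The genes whose scores ran most like each member over the 18 ENCC RNAs were named by the highest Pearson correlation of gene scores. Akt2 ran most like Maf (r = 0.955) and Ccdc59 (r = 0.945), both called lower with GDNF, by 1.12 and 0.98. Foxo3 ran most like Grik1 (r = 0.920) and Rasd2 (r = 0.910), also both called lower, by 1.33 and 0.99. Pik3r1 ran most like Eml5 (r = 0.918) and the PI3K adaptor gene Irs1 (r = 0.905), and Pik3r3 most like Cox6b2 (r = 0.937) and Slc27a1 (r = 0.929), none of which passed the GDNF test. The best matches were weaker for Akt1 with Rbm15b (r = 0.843) and Khsrp (r = 0.824), both called lower with GDNF, by 0.74 and 1.03, and for Pik3ca with Pwwp2a (r = 0.821) and Mtmr12 (r = 0.815), neither of which was called. They were lowest for Pik3cb with Irx1 (r = 0.806) and Slc39a4 (r = 0.798), and for Mtor with Rnf145 (r = 0.799) and Hipk1 (r = 0.773), and of these 4 Irx1 was called lower, by 1.01. These RNAs share guts, batches and treatment, and the correlations are descriptions.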

How the data were processed

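Biotin-labelled RNA of sorted ENCCs and whole guts was read on Affymetrix arrays. The submitters' processing notes name RMA with no version. The deposited values are scores, which the authors did not describe in the sources used here: on each array the sorted values equal normal quantiles of rank over n plus 1, within 5e-06. Each probe set also appears centred within a batch on the 7 RNAs read in both batches. The SD over probe sets of their mean was 0.0585 in batch 1 and 0.117 in batch 2, against 0.378 for independent arrays. Whether probe sets were also scaled was not checked. Without intensities, dim probe sets could not be left out, and ranks lose any shift common to all genes. Precision is limited by how many arrays there are.

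Of 45101 probe sets, 34945 had 1 gene symbol in the platform annotation, 932 had several and 9160 had none. A gene's score was the mean over its probe sets, and 9010 of 18193 genes had more than 1. GDNF differences were taken within a gut and batch, since the labels' protocols say that each gut filled both wells, and averaged over batches. The score of a well is the mean over its arrays, so the gap between well scores can depart from the difference in guts read in both batches. Differences were tested with limma 3.58.1 in R 4.3.3 (lmFit and eBayes), with Benjamini-Hochberg adjustment over all genes, probe sets or probe set pairs and a threshold of 0.05. ENCCs and whole gut were compared by limma in batch 2. The fits were tested on simulated data with few changed genes and, for whole gut, the same spread in both groups. The real groups had unequal spread and many called genes, so the simulation cannot vouch for the calls against whole gut.

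The members and lists were chosen with earlier results of these data known. Genes named beside the members are those set by name and, from each list, the 3 largest differences in size among those called, with 1 to 2 others named to complete a count, which were chosen after their values were seen. Alternatives were batches alone, other summaries of probe sets, array weights, a control covariate and each sample left out.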

Additional observations from a re-analysis of the deposited data

Results flagged for a closer look

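Of 32 sets of values over the 8 members (scores in each of the 3 groups and differences), 3 had a sample farther from the rest than Dixon's test allows, where chance gives about 1 in 20. All 3 concern gut 1. The untreated well of gut 1 scored -2.45 for Pik3cb, where the next lowest untreated well scored -0.22. The same well scored 1.25 for Mtor, where the next highest scored 0.21. For Foxo3 the GDNF difference of gut 1 was 0.66, and the nearest of the other guts was at -0.46. The wells of gut 1 were read in batch 1 only.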

How the results depend on the processing

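With batch 2 alone, which holds 4 pairs, 0 genes and 0 probe sets passed limma's test, while 3516 genes and 6516 probe sets had an unadjusted p under 0.05. In batch 2 alone Akt1 differed by 0.20, Mtor by 0.17 and probe set 1416657_at by 0.46, all against the sign over both batches, and Mtor was 0.072 with the median over probe sets. Akt2 kept its GDNF call under every setting run but batch 2 alone, at -1.25 to -0.94 over all of them. With array weights per group, 5805 genes were called for GDNF-treated ENCCs against whole gut and 3761 for untreated ENCCs. The untreated Mtor difference from whole gut was 0.18 with all RNAs, 0.19 with the median probe set, 0.34 with the most repeatable probe set and 0.18 without the doubted array, and -0.16 to 0.18 with 1 sample left out. With the most repeatable probe set, Pik3ca minus Pik3cb was -0.049, Pik3r1 minus Pik3r3 was 0.0048 and Akt1 minus Akt2 was 0.94, and with batch 1 alone the last was 0.61. Pik3r1 minus Pik3r3 ran from -0.10 to 0.10 with 1 gut left out. Without the pairing by gut as a replicate block Akt2 differed by -1.16 (adjusted p = 0.000460), and no member's GDNF call changed. With all arrays and gut as a random replicate block Foxo3 passed at -0.62 (adjusted p = 0.0365), and with the controls as a covariate Pik3cb did at -1.01 (adjusted p = 0.0414).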
